A study of Mus musculus with 40 samples.

Results

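Interferon-response genes are the genes that cells switch on when interferon reaches its receptors. A list of 33 such genes was followed in the 4 main cell populations of the mouse mammary gland. The members were found by matching the Ensembl identifiers of both deposited count tables to mouse gene symbols, and all 33 were present in both tables, out of 26132 genes in either table and 23180 in both. The populations were luminal cells, basal cells, adipocytes and the non-adipose stroma, for which the name fibroblasts is used. They were profiled by bulk RNA-seq in puberty and in the 4 stages of the adult estrous cycle, with 2 libraries per cell type and stage and 40 libraries in all. The adult stages were proestrus, estrus, metestrus and diestrus, in wildtype virgin FVB/N females of 14 to 16 weeks, with 2 or 3 mice pooled per library and different mice in the 2 libraries of a group. The pubertal libraries came from wildtype FVB/N females of 34 to 36 days, with 4 mice from 3 litters pooled per library. Luminal, basal and stromal cells were sorted by EpCAM and CD49f after removal of cells positive for the lineage markers CD45, CD31 and Ter119, whereas adipocytes were the floating fraction of the digest and were not sorted. Where cytology and histology allowed, the adult mice were pooled into an earlier (replicate 1) and a later (replicate 2) part of a stage, and otherwise by cell number, so the replicates may also differ in time within the stage. The 4 cell types of an adult replicate were taken to come from 1 pool of mice, since the methods list 1 pool per stage and replicate, and it was asked whether the cell types of 1 pool moved together. Adult and pubertal libraries were sequenced in separate runs, so age and run cannot be told apart in any comparison between them.

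In the interferon pathway, double-stranded RNA or misplaced DNA is detected by sensors, which trigger the release of type I or type III interferon. Interferon binds receptors on the same or neighbouring cells, and the kinases below these receptors activate a transcription factor complex that holds STAT2 and IRF9. This complex enters the nucleus and binds a short promoter sequence, the interferon-stimulated response element, in a shared set of target genes. The targets include more sensors, transcription factors that amplify the response, antiviral effectors, GTPases of the guanylate-binding and immunity-related families, which type II interferon also induces, and negative feedback factors. Many targets keep a low basal level in tissues without infection. The list held 5 sensors (*Ddx58*, *Ifih1*, *Dhx58*, *Zbp1* and *Eif2ak2*), 3 transcription factors (*Stat2*, *Irf9* and *Irf7*), 20 effectors, 4 GTPases (*Gbp2*, *Gbp3*, *Igtp* and *Irgm1*) and 1 feedback gene (*Usp18*).

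The promoters of 4 members are shown because the results turn on these genes and because each carries a match to the sequence that most of the members with a window held, which the choice of members did not use. RefSeq on GRCm38.p6 gave a window of 300 bases, from 250 before to 50 after the gene start, for 25 of the 33 members. The response element was searched as GAAANNGAAA and, for the other strand, as TTTCNNTTTC. At least 1 match was held by 16 of these 25 members (64%), against 3.99% of all 27025 genes with a promoter, and 7 members held at least 2. The 9 members with no match were *Cmpk2*, *Ifi35*, *Ifi44*, *Ifit2*, *Irf7*, *Irf9*, *Oasl1*, *Oasl2* and *Xaf1*. No window was used for *Dhx58*, *Oas2*, *Mx1*, *Mx2*, *Usp18*, *Rtp4*, *Parp14* and *Zbp1*. A match is a description of the letters and not evidence of binding. In the sequences, given 5′ to 3′ on the strand of the gene, capitals mark the matches. The 3 overlapping matches of *Isg15* (chr4:156200769-156201068, minus strand) began 78, 72 and 66 bases upstream of the gene start. *Ifit3* (chr19:34583279-34583578, plus strand) had matches 156 and 122 bases upstream, *Oas3* (chr5:120777610-120777909, minus strand) had 1 at 75 bases, and *Gbp2* (chr3:142620413-142620712, plus strand) had 1 at 59 bases.
Isg15: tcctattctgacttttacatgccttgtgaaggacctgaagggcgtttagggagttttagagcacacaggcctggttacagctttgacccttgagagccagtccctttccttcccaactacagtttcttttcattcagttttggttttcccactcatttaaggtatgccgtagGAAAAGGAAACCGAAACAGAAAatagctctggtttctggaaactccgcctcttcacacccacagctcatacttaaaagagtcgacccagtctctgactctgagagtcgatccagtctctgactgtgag
Ifit3: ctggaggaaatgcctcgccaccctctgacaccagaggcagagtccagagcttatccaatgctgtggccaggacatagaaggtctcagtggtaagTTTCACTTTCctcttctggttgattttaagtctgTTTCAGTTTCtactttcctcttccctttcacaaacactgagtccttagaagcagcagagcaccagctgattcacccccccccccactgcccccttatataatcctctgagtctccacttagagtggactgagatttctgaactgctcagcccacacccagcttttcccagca
Oas3: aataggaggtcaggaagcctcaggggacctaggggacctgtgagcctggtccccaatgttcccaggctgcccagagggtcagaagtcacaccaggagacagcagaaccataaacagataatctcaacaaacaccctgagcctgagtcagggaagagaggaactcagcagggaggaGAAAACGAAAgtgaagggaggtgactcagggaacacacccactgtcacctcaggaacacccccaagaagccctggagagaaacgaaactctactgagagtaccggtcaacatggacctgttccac
Gbp2: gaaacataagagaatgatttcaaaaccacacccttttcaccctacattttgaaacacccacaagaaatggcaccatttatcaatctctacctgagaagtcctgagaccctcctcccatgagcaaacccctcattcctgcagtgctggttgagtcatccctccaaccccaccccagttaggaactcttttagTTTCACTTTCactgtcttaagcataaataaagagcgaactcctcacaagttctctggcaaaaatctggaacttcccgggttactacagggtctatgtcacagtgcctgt

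Library totals were 8991222 to 22760563 counts, and levels are given as CPM, which are counts scaled to the library total, after TMM scaling over the 40 libraries. Each population carried its own markers, with summed luminal markers of 20979.7 to 40216 CPM in luminal cells, basal markers of 14099.6 to 25257 CPM in basal cells, fibroblast markers of 20273 to 116513 CPM in fibroblasts and adipocyte markers of 5631 to 26451 CPM in adipocytes. The unsorted adipocyte fraction also held leukocyte markers at 277 to 735 CPM for the 13 listed genes, against 8.23 to 15.3 in luminal cells, 7.04 to 12.8 in basal cells and 14 to 82.5 in fibroblasts. The pan-leukocyte gene *Ptprc*, which encodes CD45, had at most 0.171 CPM in any luminal library and at most 0.0605 in any basal library, against 21.3 to 58 CPM in adipocytes. Endothelial markers summed to 967 to 2594 CPM in adult fibroblasts and 457 to 1419 CPM in adult adipocytes. They summed to 15.4 to 50.8 CPM in adult luminal cells and 7.49 to 32.9 CPM in adult basal cells. *Pecam1*, which encodes CD31, had 299 to 955 CPM in the sorted fibroblasts. The part of leukocytes and of endothelial cells in the member levels was not tested. In adipocytes, several libraries stood apart by markers of other populations. Diestrus replicate 2 had epidermal markers at 2208 CPM, basal markers at 4469.5 and adipocyte markers at 6578. Puberty replicate 2 had them at 1081, 2705 and 5631 CPM, and its adipocytes came from the mice of day 36 and not from those of the other replicate 2 cells. Proestrus replicate 1 had epidermal markers at 251 CPM, against 6.2 to 9.23 CPM in the adult libraries other than diestrus replicate 2. Diestrus replicate 1 had luminal markers at 2064 CPM, against 222 to 537 CPM in the libraries of proestrus, estrus and metestrus. Puberty replicate 1 had luminal markers at 1795 CPM, basal markers at 720 CPM and endothelial markers at 2282 CPM. Among luminal libraries, puberty replicate 2 leaned to short transcripts, with a Spearman correlation of -0.52 over genes between exon length and deviation from the luminal mean, against -0.29 to 0.23 in the other luminal libraries. In bulk samples, fewer cells of a type and less RNA per cell cannot be told apart.

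In adults, the unsorted adipocyte fraction and the fibroblasts carried the highest levels of interferon-response genes, luminal cells were intermediate and basal cells were lowest. The summed CPM of the 33 members, as lowest, median and highest of the 8 adult libraries, was 372, 410.5 and 560.2 CPM in luminal cells, 176, 216 and 240.2 CPM in basal cells, 700.4, 1118 and 1319 CPM in fibroblasts and 740.2, 1100.4 and 1780.5 CPM in adipocytes. The basal range lay below those of the other populations, and the adipocyte and fibroblast ranges overlapped. By mean CPM, adipocytes were highest for 20 members, fibroblasts for 10 and luminal cells for 3 (*Oas3*, *Ddx58* and *Usp18*), while basal cells were lowest for 24 and luminal cells for 9. This is an order of means. For every member but *Eif2ak2*, the libraries of the highest population overlapped with those of the next. All 33 members averaged above 1 CPM in adipocytes, 32 in fibroblasts (all but *Oas3*), 29 in luminal cells and 19 in basal cells. The heatmap of log2 levels shows these 4 blocks of libraries.

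**Figure D1:**
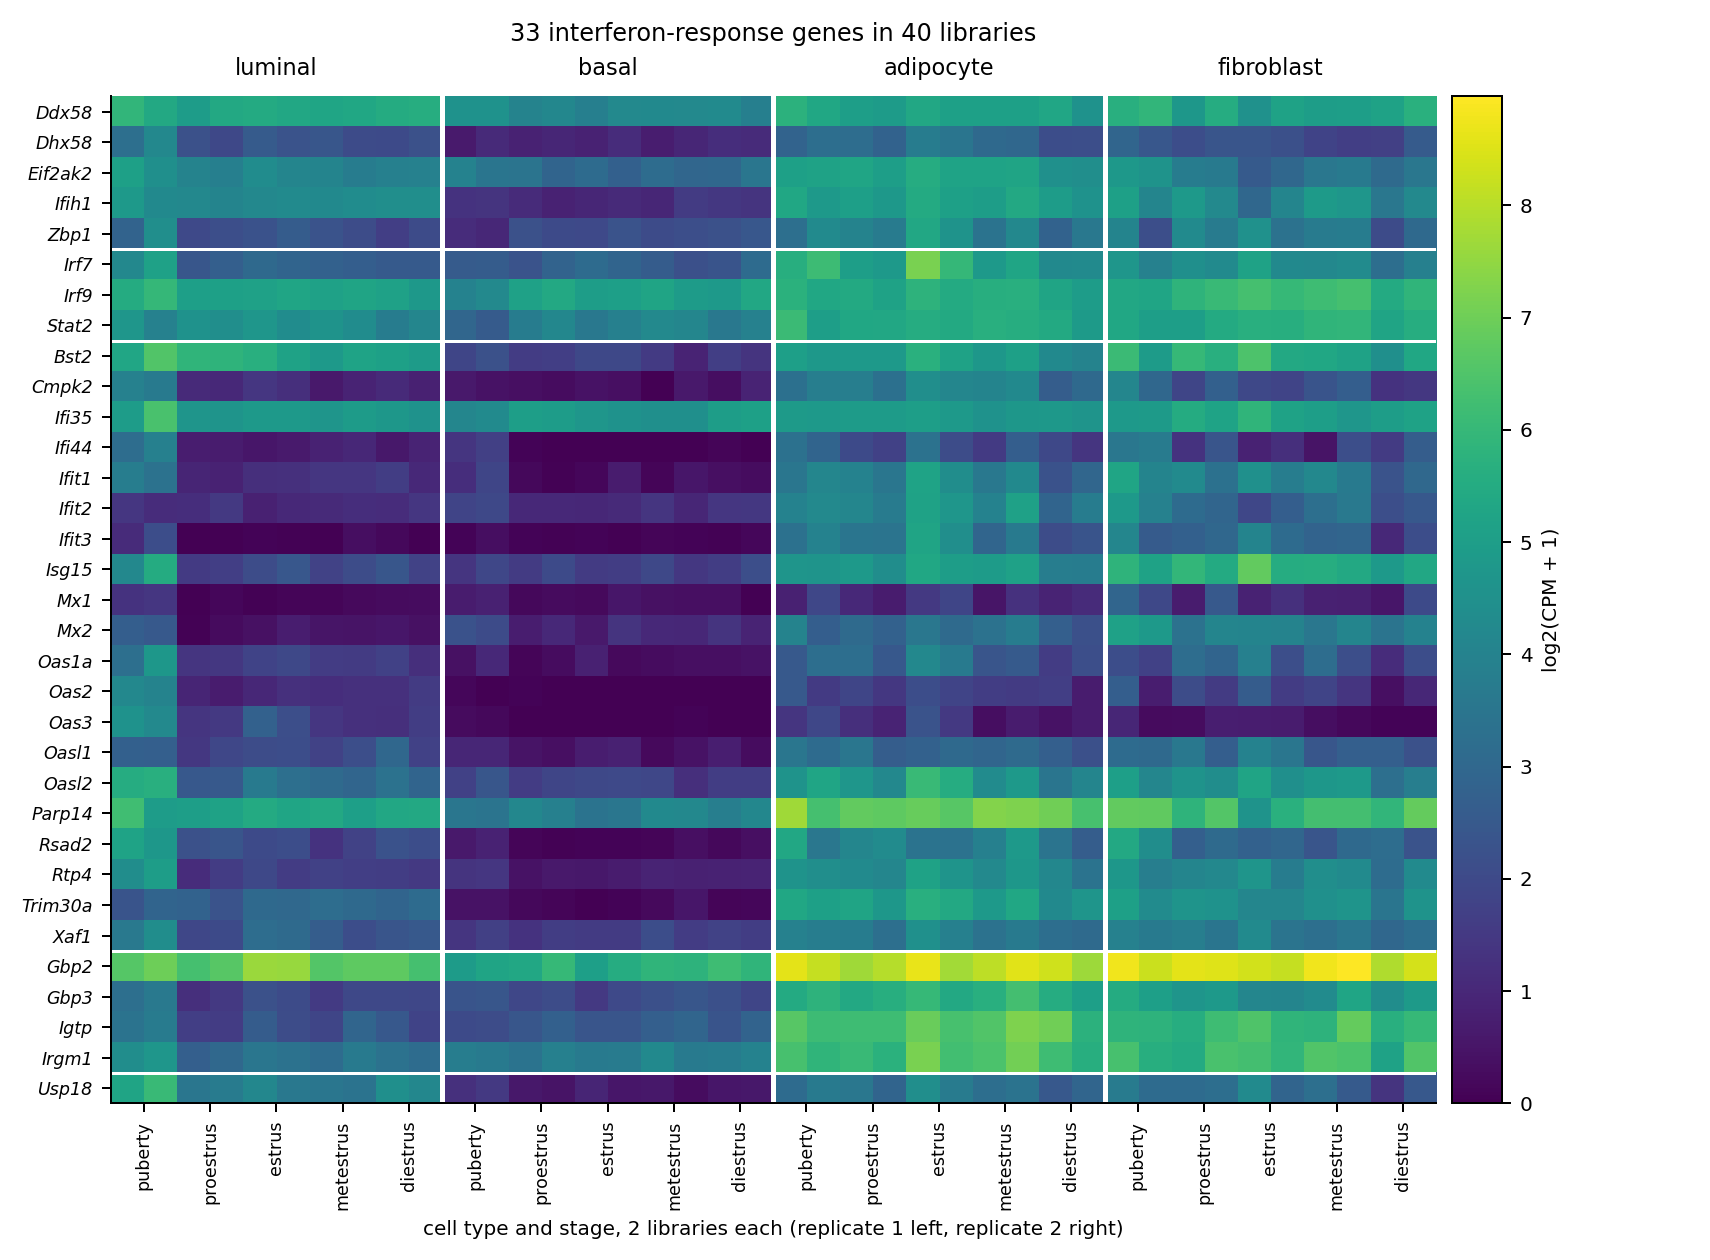
Heatmap of log2(CPM + 1) for the 33 interferon-response genes (rows, grouped by role) in the 40 libraries (columns, grouped by cell type and ordered from puberty to diestrus with replicates 1 and 2 side by side). Summed over the members, the 8 adult basal columns hold 176 to 240.2 CPM, and the luminal columns hold 372 to 560.2 CPM in adults, against 770.0 and 964 CPM in puberty.

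To compare each adult population with the mean of the other 3, a quasi-likelihood model was fitted to the 32 adult libraries, and a gene was called at a Benjamini-Hochberg adjusted p below 0.05 over 15077 genes. Fold changes are given on the log2 scale with their standard error. In luminal cells 9 members were higher and 20 lower, where 38% of all genes were higher and 35.7% lower. In basal cells 0 were higher and 31 lower (39.7% and 34.6% of all genes). In adipocytes 30 were higher and 0 lower (43.9% and 36.6%), and in fibroblasts 30 were higher and 1 lower (39.9% and 37.7%). Median log2 fold changes of the members were -0.48 in luminal cells, -2.48 in basal cells, 1.59 in fibroblasts and 1.98 in adipocytes. Over all genes tested they were -0.04 in luminal cells, -0.05 in basal cells, -0.02 in fibroblasts and 0.10 in adipocytes. Without the 4 members that had no count in both libraries of some stage (*Ifit3* in luminal cells and *Oas2*, *Oas3* and *Ifi44* in basal cells), the member medians were -0.56 in luminal cells, -2.20 in basal cells, 1.48 in fibroblasts and 1.81 in adipocytes. Without diestrus replicate 2, the pool whose adipocytes carried the most epidermal markers, 32 members were called in adipocytes, and 30 without proestrus replicate 1 or without diestrus replicate 1.

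Among the sensors, *Ifih1*, which encodes the long double-stranded RNA sensor MDA5, separated basal cells from the rest, and so did *Ddx58* and *Dhx58*. *Ifih1* had, as lowest, median and highest of 8 adult libraries, 0.793, 1.14 and 1.98 CPM in basal cells, against 15.6, 18.4 and 20.7 CPM in luminal cells, 23, 31.5 and 43.7 CPM in adipocytes and 7.05, 17.8 and 28.3 CPM in fibroblasts. Every basal library was below every library of the other types, and the basal fold change was -4.11 ± 0.18 (adjusted p = 2.46e-14). *Ddx58*, which encodes the RNA sensor RIG-I, averaged 40.9 ± 5.14 CPM (SD, n = 8) in luminal cells, against 16.4 ± 2.02 CPM in basal cells, 32.9 ± 5.59 CPM in adipocytes and 34.6 ± 9.65 CPM in fibroblasts. *Eif2ak2*, which encodes the kinase PKR that halts translation on double-stranded RNA, was the only member lower in fibroblasts (log2 fold change -0.73 ± 0.10, adjusted p = 2.34e-06). It had 4.81 to 12.6 CPM in fibroblasts, against 20.3 to 45.6 CPM in adipocytes, 12.7 to 19.6 CPM in luminal cells and 5.77 to 10.6 CPM in basal cells. *Dhx58*, which encodes the regulatory helicase LGP2, averaged 0.967 ± 0.217 CPM in basal cells, against 3.72 ± 0.722 CPM in luminal cells, 7.31 ± 3.15 CPM in adipocytes and 3.37 ± 1.01 CPM in fibroblasts. *Zbp1*, a sensor of left-handed nucleic acid, averaged 3.53 ± 0.471 CPM in basal cells, against 3.45 ± 0.842 CPM in luminal cells, 17 ± 11 CPM in adipocytes and 12.3 ± 6.04 CPM in fibroblasts.

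The 3 transcription factors averaged above 1 CPM in every population. *Irf9*, the DNA-binding subunit of the complex that holds STAT2, averaged 64.7 ± 12.4 CPM in fibroblasts, against 42.6 ± 8.22 CPM in adipocytes, 34.2 ± 5.21 CPM in basal cells and 33.8 ± 3.32 CPM in luminal cells (SD, n = 8 each). *Stat2*, the transactivating subunit, averaged 46.7 ± 9.27 CPM in fibroblasts, against 42.3 ± 6.46 CPM in adipocytes, 19.95 ± 4.05 CPM in luminal cells and 14.2 ± 2.58 CPM in basal cells. *Irf7*, the amplifier of type I interferon production, had 18.2, 29.4 and 141 CPM as lowest, median and highest in adipocytes, against 8.36 to 34.6 CPM in fibroblasts, 4.3 to 7.44 CPM in luminal cells and 3.55 to 7.87 CPM in basal cells. All 3 factors were lower in luminal cells and in basal cells, 3 were higher in fibroblasts and 2 (*Irf7* and *Stat2*) in adipocytes.

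The effectors showed the widest contrasts. *Trim30a*, a member of a mouse TRIM family that dampens Toll-like receptor signalling, was close to absent in basal cells. *Trim30a* had, as lowest, median and highest of 8 adult libraries, 0, 0.109 and 0.465 CPM in basal cells, against 3.85, 7.34 and 8.19 CPM in luminal cells, 18.2, 32.2 and 50.1 CPM in adipocytes and 10.1, 22.3 and 24 CPM in fibroblasts. The basal libraries lay below all others (log2 fold change -7.12 ± 0.25, adjusted p = 1.1e-15), and the gene was higher in adipocytes (3.68 ± 0.14, adjusted p = 1.49e-15) and in fibroblasts (2.75 ± 0.15, adjusted p = 4.33e-13). Reads of its close paralogs cannot be told apart with certainty. *Bst2* had, as lowest, median and highest of 8 adult libraries, 0.873, 2.08 and 2.86 CPM in basal cells, against 27.1, 35.2 and 57.7 CPM in luminal cells, 15.2, 27.1 and 50.9 CPM in adipocytes and 21.2, 40.6 and 86.8 CPM in fibroblasts. *Bst2* encodes tetherin, which holds budding virions at the membrane, and was among the 5 of 20 effectors that were called higher in luminal cells. These calls were against the mean of the other 3 populations, which includes the basal cells. *Oas2*, *Rsad2* and *Trim30a* averaged lower in luminal cells than in adipocytes and fibroblasts, and *Bst2* lower than in fibroblasts. *Bst2* was higher in luminal cells (log2 fold change 1.54 ± 0.12, adjusted p = 4.24e-10) and in fibroblasts (log2 fold change 1.81 ± 0.12, adjusted p = 3.3e-11), and lower in basal cells (log2 fold change -4.21 ± 0.18, adjusted p = 2.1e-14). *Isg15* had, as lowest, median and highest of 8 adult libraries, 26.9, 45 and 113 CPM in fibroblasts, against 1.84, 2.84 and 4.37 CPM in luminal cells, 1.75, 2.09 and 3.45 CPM in basal cells and 12.7, 28.1 and 39.2 CPM in adipocytes. *Isg15*, the ubiquitin-like modifier, was higher in fibroblasts (log2 fold change 3.18 ± 0.13, adjusted p = 9.54e-15) and lower in luminal cells (log2 fold change -2.28 ± 0.17, adjusted p = 1.87e-10). The fibroblast and adipocyte ranges of *Isg15* overlapped, and both lay above every epithelial library.

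*Mx2* had, as lowest, median and highest of 8 adult libraries, 9.41, 14.9 and 15.9 CPM in fibroblasts, against 0.0438, 0.357 and 0.649 CPM in luminal cells, 0.537, 1.01 and 1.57 CPM in basal cells and 3.58, 7.66 and 12.5 CPM in adipocytes. *Mx2*, an antiviral dynamin-like GTPase, was higher in fibroblasts (log2 fold change 3.30 ± 0.16, adjusted p = 1.62e-13), which overlapped with adipocytes, and lower in luminal cells (log2 fold change -3.86 ± 0.25, adjusted p = 9.73e-12), where all but 1 library lay below every basal library. *Rtp4* had, as lowest, median and highest of 8 adult libraries, 0.352, 0.687 and 0.872 CPM in basal cells, against 1.23, 2.08 and 2.84 CPM in luminal cells, 9.55, 18.3 and 34.9 CPM in adipocytes and 8.07, 17.8 and 24.8 CPM in fibroblasts. *Rtp4*, of the receptor transporter protein family, was lower in basal cells (log2 fold change -3.78 ± 0.21, adjusted p = 1.08e-12) and higher in adipocytes (log2 fold change 2.80 ± 0.14, adjusted p = 1.45e-13) and fibroblasts (log2 fold change 2.51 ± 0.14, adjusted p = 1.35e-12). *Rsad2* had, as lowest, median and highest of 8 adult libraries, 0.0466, 0.0899 and 0.303 CPM in basal cells, against 1.51, 3.34 and 4.15 CPM in luminal cells, 5.29, 11.9 and 27.9 CPM in adipocytes and 3.96, 6.35 and 8.29 CPM in fibroblasts. *Rsad2* encodes viperin, which makes a chain-terminating nucleotide, and it was lower in basal cells (log2 fold change -5.65 ± 0.28, adjusted p = 2.18e-13) and higher in adipocytes (log2 fold change 3.27 ± 0.17, adjusted p = 1.83e-13). Its neighbour *Cmpk2*, a mitochondrial nucleotide kinase whose gene lies 12751 bases from *Rsad2* on chromosome 12, had 5.3 to 20.5 CPM (median 14.3) in adipocytes, against 0.536 to 1.65 in luminal cells, 0 to 0.847 in basal cells and 1.48 to 5.75 CPM in fibroblasts (log2 fold change 3.57 ± 0.19, adjusted p = 2.71e-13). *Ifit2*, which binds viral RNA, had 6.44 to 34.8 CPM (median 15.7) in adipocytes, against 0.754 to 1.8 in luminal cells, 0.931 to 1.75 in basal cells and 2.72 to 11.4 CPM in fibroblasts (log2 fold change 3.08 ± 0.14, adjusted p = 4.48e-14).

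Of the oligoadenylate synthetases, whose product activates RNase L, *Oas2* and *Oas3* were called higher in luminal cells than in the mean of the other 3 populations. That mean includes the basal cells, and *Oas2* averaged lower in luminal cells than in adipocytes and in fibroblasts. *Oas3* had 1.32 to 5.86 CPM (median 1.73) in luminal cells, against 0 to 0.0582 in basal cells, 0.252 to 3.86 in adipocytes and 0.0591 to 0.67 CPM in fibroblasts, and was higher in luminal cells (adjusted p = 1.77e-10). No fold is given because 7 of the 8 basal libraries had no count and the remaining one had 1. *Oas2* likewise had 1 count over the 8 adult basal libraries, against 1.22 ± 0.393 CPM in luminal cells, 2.15 ± 0.801 CPM in adipocytes and 2.23 ± 1.48 CPM in fibroblasts. The 2 genes lie 3244 bases apart on chromosome 5. *Oas1a* averaged 7.03 ± 5.12 CPM in adipocytes, against 6.04 ± 4.12 CPM in fibroblasts, 2.03 ± 0.504 CPM in luminal and 0.308 ± 0.205 CPM in basal cells, with reads that may be shared with its paralogs. *Oasl2*, an Oas-like protein, had 1.34 to 2.92 CPM (median 2.38) in basal cells, against 4.56 to 11.6 in luminal cells, 10.2 to 67.4 in adipocytes and 8.66 to 36.4 CPM in fibroblasts (log2 fold change -2.74 ± 0.16, adjusted p = 3.97e-12). Its neighbour *Oasl1* averaged 0.445 ± 0.233 CPM in basal cells, against 3.28 ± 1.58 CPM in luminal cells, 6.52 ± 2.01 CPM in adipocytes and 7.62 ± 3.98 CPM in fibroblasts.

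The remaining effectors ran from near 0 in basal cells to nearly even levels. *Ifit1*, an effector that binds foreign RNA caps, averaged 0.252 ± 0.2 CPM in basal cells, against 1.36 ± 0.434 CPM in luminal cells, 15.1 ± 10.1 CPM in adipocytes and 12.8 ± 6.07 CPM in fibroblasts. *Ifit3*, whose reads may be shared with *Ifit3b*, was at or near the detection limit in the epithelium, with 12 counts over the 8 luminal and 8 counts over the 8 basal libraries, against 12.8 ± 11 CPM in adipocytes and 6.66 ± 4.25 CPM in fibroblasts. *Ifi44* had 3 counts over the 8 basal libraries, and *Mx1*, the nuclear relative of *Mx2* in mice, averaged below 2 CPM in every adult population. *Parp14*, an ADP-ribosyltransferase, averaged 119 ± 25.7 CPM in adipocytes, against 69.4 ± 28 CPM in fibroblasts, 38.1 ± 4.63 CPM in luminal cells and 14.6 ± 3.24 CPM in basal cells. *Xaf1*, a pro-apoptotic partner of XIAP, averaged 2.17 ± 0.528 CPM in basal cells, against 4.86 ± 2.04 CPM in luminal cells, 11.7 ± 4.58 CPM in adipocytes and 10.8 ± 3.63 CPM in fibroblasts. *Ifi35* had the smallest ratio of its highest to its lowest population mean of the 33 members (1.43), with 25.9 ± 2.23 CPM in luminal cells, 27 ± 4.91 CPM in basal cells, 27.1 ± 2.95 CPM in adipocytes and 37 ± 10.1 CPM in fibroblasts.

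All 4 GTPases were higher in adipocytes and in fibroblasts, and lower in luminal and in basal cells. *Igtp* had, as lowest, median and highest of 8 adult libraries, 47.5, 60.5 and 115 CPM in fibroblasts, against 2.01, 2.94 and 6.55 CPM in luminal cells, 4.07, 4.95 and 6.57 CPM in basal cells and 53.2, 86.6 and 149.97 CPM in adipocytes. *Igtp*, an immunity-related GTPase that acts on pathogen vacuoles, was higher in fibroblasts (log2 fold change 2.51 ± 0.17, adjusted p = 1.91e-11) and lower in luminal cells (log2 fold change -3.20 ± 0.23, adjusted p = 5.92e-11), and the stromal and epithelial ranges did not meet. *Gbp3* had 32.6 to 78.1 CPM (median 46.8) in adipocytes, against 1.32 to 3.7 in luminal cells, 1.79 to 4.31 in basal cells and 15.9 to 38 CPM in fibroblasts, and was higher in adipocytes (log2 fold change 3.14 ± 0.12, adjusted p = 1.24e-15) and lower in luminal cells (log2 fold change -2.63 ± 0.16, adjusted p = 2.97e-12), with reads that may be shared with *Gbp7*. *Irgm1*, the regulatory GTPase of the same vacuolar system, averaged 83.9 ± 34.7 CPM in adipocytes, against 70.7 ± 22 CPM in fibroblasts, 13.1 ± 2.59 CPM in basal and 8.76 ± 1.97 CPM in luminal cells. Per kilobase of exon, *Gbp2* was the most abundant of the 33 members in each adult population, at 47 ± 18.4 RPKM in luminal cells, 21 ± 5 in basal cells, 143 ± 32.9 in fibroblasts and 111 ± 32 in adipocytes (SD, n = 8 each). On that scale, *Bst2* was second in luminal cells (44.7 ± 13.4 RPKM), *Isg15* in fibroblasts (69.5 ± 34.6 RPKM) and *Igtp* in adipocytes (47.7 ± 16.7 RPKM). *Usp18*, the deISGylase that shuts off receptor signalling, had its highest mean in luminal cells at 13.5 ± 4.08 CPM, against 0.482 ± 0.188 CPM in basal cells, 9.98 ± 5.06 CPM in adipocytes and 7.6 ± 5.1 CPM in fibroblasts. Its luminal and adipocyte libraries overlapped.

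In puberty, most called members were higher rather than lower in luminal cells, against a mean of the other 3 populations that includes the basal cells. Such a call did not place luminal cells above every population. *Ifih1* was called higher with 27.1 and 18.2 CPM in luminal cells, against 39.9 and 27.9 CPM in adipocytes. For *Oas3* and *Usp18*, in contrast, both luminal libraries were the highest. In the 8 pubertal libraries (14263 genes tested), 16 members were higher and 4 lower in luminal cells than in the mean of the other 3 populations, against 23.6% and 24.5% of all genes. Basal cells had 0 higher and 32 lower (17.2% and 18.1%), adipocytes 17 higher and 0 lower (24.1% and 5.97%) and fibroblasts 21 higher and 1 lower (23.6% and 18.7%). Member medians of the log2 fold change were 0.76 in luminal cells, -3.23 in basal cells, 1.12 in fibroblasts and 1.23 in adipocytes. Without the 4 members with empty groups they were 0.47 in luminal cells, -3.06 in basal cells, 1.27 in fibroblasts and 1.26 in adipocytes. Over all genes tested the medians were 0.00 in luminal cells, -0.02 in basal cells, -0.05 in fibroblasts and 0.15 in adipocytes. The counts moved with single libraries. They were 13 to 21 in luminal cells, with 13 when luminal replicate 2 was left out, and 8 to 23 in fibroblasts, with 8 when fibroblast replicate 1 was left out. Without adipocyte replicate 2, which carried epidermal markers, 15 members were called in adipocytes.

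The smallest adjusted p in pubertal luminal cells belonged to *Oas3* and *Usp18*. *Oas3* had 22.7 and 17.8 CPM in luminal cells, against 0.204 and 0.155 CPM in basal cells, 1.6 and 2.78 CPM in adipocytes and 0.966 and 0.189 CPM in fibroblasts (log2 fold change 4.98 ± 0.41, adjusted p = 3.73e-05). *Usp18* had 37.1 and 66.5 CPM in luminal cells, against 1.38 and 1.81 CPM in basal cells, 7.76 and 12 CPM in adipocytes and 12.2 and 7.75 CPM in fibroblasts (log2 fold change 3.22 ± 0.29, adjusted p = 6.38e-05). For both genes the 2 luminal libraries lay above all 6 others. *Oas1a* had 8.68 and 26 CPM in luminal cells, against 0.307 and 1.03 CPM in basal cells, 4.68 and 8.52 CPM in adipocytes and 3.34 and 2.36 CPM in fibroblasts (log2 fold change 2.86 ± 0.48, adjusted p = 0.00169). *Oasl2* had 46.2 and 49.6 CPM in luminal cells, against 2.35 and 4.34 CPM in basal cells, 23.3 and 38.1 CPM in adipocytes and 32.3 and 16.5 CPM in fibroblasts (log2 fold change 1.78 ± 0.32, adjusted p = 0.00223). For each of these synthetases both luminal libraries lay above the other populations. *Oas2* had 17.3 and 15 CPM in luminal cells, against 0.102 and 0 CPM in basal cells, 4.68 and 1.89 CPM in adipocytes and 5.36 and 0.661 CPM in fibroblasts (adjusted p = 0.00118), and the 2 basal libraries held 2 counts in all. *Ifit2* went the other way, with 1.67 and 1.23 CPM in luminal cells, against 2.61 and 2.9 CPM in basal cells, 14.7 and 17.5 CPM in adipocytes and 27 and 14.3 CPM in fibroblasts (log2 fold change -2.76 ± 0.36, adjusted p = 0.00046), and it was higher in adipocytes (log2 fold change 1.90 ± 0.27, adjusted p = 0.00111) and fibroblasts (log2 fold change 2.41 ± 0.27, adjusted p = 0.000199). The other 3 members lower in pubertal luminal cells were the GTPases *Igtp*, *Gbp3* and *Irgm1*.

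Basal cells again had the most members called lower in puberty. *Igtp* had 3.07 and 3.26 CPM in basal cells, against 9.64 and 12.3 CPM in luminal cells, 99.4 and 69.3 CPM in adipocytes and 56.1 and 54.2 CPM in fibroblasts, with a basal log2 fold change of -3.59 ± 0.28 (adjusted p = 8.19e-05), and was higher in adipocytes (log2 fold change 2.78 ± 0.20, adjusted p = 3.68e-05) and fibroblasts (log2 fold change 2.01 ± 0.21, adjusted p = 0.000113). *Trim30a* had 0.358 and 0.362 CPM in basal cells, against 4.01 and 6.44 CPM in luminal cells, 39.5 and 33 CPM in adipocytes and 33.3 and 19.2 CPM in fibroblasts (log2 fold change -5.58 ± 0.44, adjusted p = 8.49e-05), with log2 fold changes of 3.32 ± 0.27 in adipocytes (adjusted p = 6.75e-05) and 2.73 ± 0.28 in fibroblasts (adjusted p = 0.00011). The basal libraries were the lowest for both genes. *Ifih1* had 1.48 and 1.55 CPM in basal cells, against 27.1 and 18.2 CPM in luminal cells, 39.9 and 27.9 CPM in adipocytes and 32.8 and 16 CPM in fibroblasts (log2 fold change -4.17 ± 0.42, adjusted p = 0.000235). *Rtp4* had 1.53 and 1.65 CPM in basal cells, against 19.9 and 30.5 CPM in luminal cells, 23.2 and 20.5 CPM in adipocytes and 25.8 and 13.2 CPM in fibroblasts (log2 fold change -3.83 ± 0.39, adjusted p = 0.000255). *Gbp3* had 4.09 and 4.34 CPM in basal cells, against 8.68 and 11.3 CPM in luminal cells, 43.2 and 54.8 CPM in adipocytes and 44.8 and 32 CPM in fibroblasts (log2 fold change -2.70 ± 0.28, adjusted p = 0.000264), with 2.08 ± 0.21 in adipocytes (adjusted p = 0.000194) and 1.65 ± 0.22 in fibroblasts (adjusted p = 0.000468). Each of these genes had its basal values below all others. *Gbp2* had 29.1 and 36.9 CPM in basal cells, against 95.4 and 127 CPM in luminal cells, 386 and 292 CPM in adipocytes and 442 and 307 CPM in fibroblasts (log2 fold change -2.91 ± 0.31, adjusted p = 0.000291), and was higher in adipocytes (log2 fold change 1.63 ± 0.24, adjusted p = 0.0012) and fibroblasts (log2 fold change 1.86 ± 0.24, adjusted p = 0.00038). *Gbp2*, like *Igtp* and *Gbp3*, was lowest in basal cells and next lowest in luminal cells. *Irf7* had 48.3 and 69.4 CPM in adipocytes, against 17.4 and 33.7 CPM in luminal cells, 4.91 and 5.12 CPM in basal cells and 25.1 and 14.6 CPM in fibroblasts (log2 fold change 2.13 ± 0.30, adjusted p = 0.000968), with adipocytes above the rest. *Mx2* had 34 and 28.2 CPM in fibroblasts, against 5.47 and 4.68 CPM in luminal cells, 3.83 and 3.15 CPM in basal cells and 15.2 and 5.46 CPM in adipocytes (log2 fold change 2.51 ± 0.33, adjusted p = 0.000463).

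Adult and pubertal levels were compared in each cell type, as the mean of the 4 adult stages minus puberty, in 1 fit of the 40 libraries with 15356 genes. In adult luminal cells 0 members were higher and 24 lower than in pubertal luminal cells, where 4.36% of all genes were higher and 9.03% lower. The median log2 fold change of the members was -1.98, or -1.77 without the 4 members with empty groups, against -0.01 over all genes. The 24 members were 15 of 20 effectors, 3 of 5 sensors (*Dhx58*, *Zbp1* and *Eif2ak2*), 2 of 3 transcription factors (*Irf7* and *Irf9*), 3 of 4 GTPases (*Gbp3*, *Igtp* and *Irgm1*) and *Usp18*. The count was 24 with DESeq2, with DESeq2 size factors and without the filter, and 19, with a median of -1.46, without puberty replicate 2, which leaned to short transcripts. With an offset for exon length in each library, 24 members were lower.

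*Rtp4* had 1.23 to 2.84 CPM (median 2.08) in the 8 adult luminal libraries, against 19.9 and 30.5 CPM in the pubertal ones (log2 fold change -3.61 ± 0.26, adjusted p = 1.86e-09). *Isg15* had 1.84 to 4.37 CPM (median 2.84) in the 8 adult luminal libraries, against 17.1 and 45.4 CPM in the pubertal ones (log2 fold change -3.41 ± 0.29, adjusted p = 4.3e-08). For both genes, each pubertal library lay above the highest adult one. *Mx2* had 0.0438 to 0.649 CPM (median 0.357) in the 8 adult luminal libraries, against 5.47 and 4.68 CPM in the pubertal ones (log2 fold change -3.98 ± 0.35, adjusted p = 9.96e-08). *Cmpk2* had 0.536 to 1.65 CPM (median 1.05) in the 8 adult luminal libraries, against 14.5 and 12 CPM in the pubertal ones (log2 fold change -3.71 ± 0.33, adjusted p = 1.08e-07). *Rsad2* had 1.51 to 4.15 CPM (median 3.34) in the 8 adult luminal libraries, against 35.8 and 26 CPM in the pubertal ones (log2 fold change -3.34 ± 0.32, adjusted p = 3.46e-07). No adult library of these genes reached a pubertal one. *Oasl2* had 4.56 to 11.6 CPM (median 7.07) in the 8 adult luminal libraries, against 46.2 and 49.6 CPM in the pubertal ones (log2 fold change -2.74 ± 0.25, adjusted p = 1.08e-07). The summed CPM of the 33 members was 372 to 560.2 in adult luminal libraries, against 770.0 and 964 in the pubertal ones. The 9 members not called were *Bst2*, *Ddx58*, *Gbp2*, *Ifih1*, *Ifit2*, *Oasl1*, *Parp14*, *Stat2* and *Trim30a*, and they included *Gbp2* and *Bst2*, the 2 most abundant members per kilobase in adult luminal cells. *Gbp2*, for example, had 79.3 to 194 CPM in adult libraries, against 95.4 and 127 CPM in pubertal ones (log2 fold change 0.01 ± 0.23, adjusted p = 1). Leukocyte markers in these libraries summed to 8.23 to 13.5 CPM in adults, against 11.1 and 15.3 in puberty. Genes induced by dissociation stress summed to 6378 to 11720.3 CPM in adults, against 5167 and 4966 in puberty. Luminal markers summed to 24211 to 29972 CPM in adults, against 20979.7 and 40216 in puberty. Stress genes were thus higher in every adult library. Epidermal markers summed to 56.8 to 123 CPM in adults, against 233 and 386 in puberty, and fibroblast markers to 121 to 534 CPM in adults, against 39.4 and 26.9 in puberty, so that neither list overlapped between the ages. The part of these differences in the result was not tested.

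**Figure D2:**
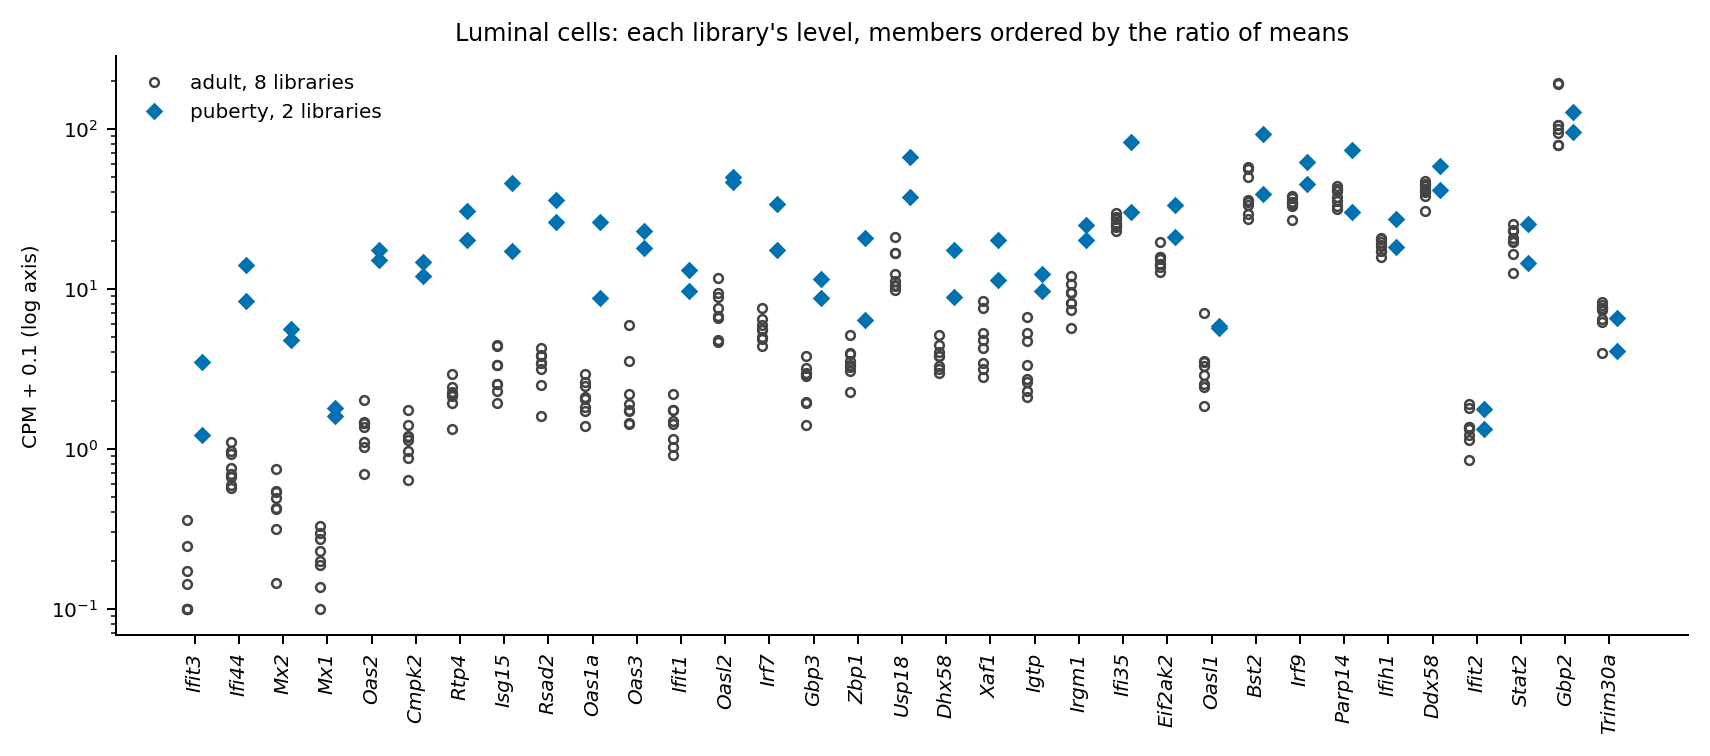
CPM + 0.1 (log axis) of the 33 members in luminal cells, with the 8 adult libraries as circles on the left of each gene and the 2 pubertal libraries as diamonds on the right, ordered by the ratio of the means. For *Rtp4*, *Isg15*, *Mx2*, *Cmpk2*, *Oasl2* and *Rsad2* every diamond lies above every circle.

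In adult basal cells 5 members were higher and 11 lower than in puberty, against 15.8% and 18.5% of all genes, with a member median of -0.54 (-0.46 without the 4 members with empty groups) and a median of -0.00 over all genes. *Irf9* had 28 to 41.6 CPM (median 33.3) in the 8 adult basal libraries, against 14.9 and 17.8 CPM in the pubertal ones (log2 fold change 1.06 ± 0.18, adjusted p = 8.6e-05). *Stat2* had 11 to 17.8 CPM (median 14.2) in the 8 adult basal libraries, against 6.8 and 4.91 CPM in the pubertal ones (log2 fold change 1.27 ± 0.26, adjusted p = 0.000527). Both transcription factors were higher in every adult library than in either pubertal one, and *Gbp2*, *Ifi35* and *Zbp1* were also higher. *Ifit1* had 0.0466 to 0.617 CPM (median 0.196) in the 8 adult basal libraries, against 1.28 and 2.64 CPM in the pubertal ones (log2 fold change -3.03 ± 0.49, adjusted p = 5.03e-05). *Mx2* had 0.537 to 1.57 CPM (median 1.01) in the 8 adult basal libraries, against 3.83 and 3.15 CPM in the pubertal ones (log2 fold change -1.76 ± 0.35, adjusted p = 0.000402). The adult and pubertal ranges did not meet for either effector. *Ifi44* had 0 to 0.098 CPM in adult basal libraries, with 3 counts in all, against 1.58 and 2.27 CPM in puberty (adjusted p = 1.5e-06), and *Oas3* had 1 count in the 8 adult libraries, against 7 in the 2 pubertal ones (adjusted p = 0.00126). The other 7 lower members were *Usp18*, *Rsad2*, *Rtp4*, *Ifit2*, *Eif2ak2*, *Trim30a* and *Oasl1*. Without puberty replicate 2, 9 members were called. Several marker lists did not overlap between the ages in basal cells. Epidermal markers summed to 1.71 to 4.3 CPM in adults, against 135 and 239.7 in puberty, and fibroblast markers to 71.5 to 179.6 CPM in adults, against 387 and 384 in puberty. Luminal markers summed to 2454 to 3133 CPM in adults, against 1478 and 1927 in puberty, and genes induced by dissociation stress to 4716 to 8908 CPM in adults, against 2726 and 3877 in puberty. Their part in the result was not tested.

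In adult fibroblasts 1 member was higher and 10 lower than in puberty, against 11.8% and 12.1% of all genes, with a median of -0.45 against 0.12 over all genes. *Eif2ak2* had 4.81 to 12.6 CPM (median 10.8) in the 8 adult fibroblast libraries, against 26.4 and 23.6 CPM in the pubertal ones (log2 fold change -1.42 ± 0.19, adjusted p = 2.28e-05). *Rsad2* had 3.96 to 8.29 CPM (median 6.35) in the 8 adult fibroblast libraries, against 41.4 and 20.1 CPM in the pubertal ones (log2 fold change -2.30 ± 0.33, adjusted p = 4.78e-05). *Ifit2* had 2.72 to 11.4 CPM (median 6.03) in the 8 adult fibroblast libraries, against 27 and 14.3 CPM in the pubertal ones (log2 fold change -1.80 ± 0.27, adjusted p = 6.52e-05). For these genes both pubertal libraries lay above all 8 adult ones. *Cmpk2* had 1.48 to 5.75 CPM (median 2.77) in the 8 adult fibroblast libraries, against 16.3 and 6.99 CPM in the pubertal ones (log2 fold change -1.93 ± 0.35, adjusted p = 0.000357). *Ifi44* had 0.387 to 5.26 CPM (median 1.7) in the 8 adult fibroblast libraries, against 10.6 and 12.3 CPM in the pubertal ones (log2 fold change -2.38 ± 0.48, adjusted p = 0.00108). *Irf9* had 43.7 to 80.0 CPM (median 64.7) in the 8 adult fibroblast libraries, against 40.8 and 37.7 CPM in the pubertal ones (log2 fold change 0.71 ± 0.18, adjusted p = 0.00498). *Irf9* was the 1 member that was higher. Without puberty replicate 1, 6 members were called and the median was 0.01. Within puberty, replicate 2 was below replicate 1 for 29 of 32 members, with a median log2 difference of -0.66. Fibroblast markers summed to 20273 to 54512 CPM in adults, against 116513 and 83504 in puberty, and genes induced by dissociation stress to 10011 to 22159 CPM in adults, against 7547.5 and 6575 in puberty. Neither list overlapped between the ages, and their part in the result was not tested. In adult adipocytes 0 members were higher and 2 lower, against 8.76% and 14.7% of all genes, with a median of -0.18 against -0.12 over all genes. *Oas3* had 0.252 to 3.86 CPM (median 0.732) in the 8 adult adipocyte libraries, against 1.6 and 2.78 CPM in the pubertal ones (log2 fold change -1.30 ± 0.41, adjusted p = 0.0252). *Rsad2* had 5.29 to 27.9 CPM (median 11.9) in the 8 adult adipocyte libraries, against 40.7 and 10.8 CPM in the pubertal ones (log2 fold change -1.005 ± 0.35, adjusted p = 0.0378). Without puberty replicate 1 the log2 fold change of *Rsad2* turned to 0.35 (adjusted p = 0.633). In both genes the adult and pubertal ranges overlapped. No member was called when the 4 libraries of proestrus replicate 2, of estrus replicate 2 or of metestrus replicate 1 were left out, 1 was called without proestrus replicate 1, diestrus replicate 1, diestrus replicate 2 or puberty replicate 1, and 3 without metestrus replicate 2. Without puberty replicate 2, the one with epidermal markers, 2 members were called, of which 1 was shared. Fibroblast markers in adipocytes summed to 3706 to 7132 CPM in adults, against 10607 and 19205 in puberty, and their part in the result was not tested.

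Whether adult and pubertal levels differed unequally between the cell types was tested with the interaction of age and cell type. It was called for 26 of 33 members, against 42% of all genes, and for 15 without puberty replicate 2. The 6 smallest adjusted p were 4.36e-06 for *Rtp4*, 5.92e-06 for *Isg15*, 5.01e-05 for *Irf9*, 8.87e-05 for *Oasl2*, 9.33e-05 for *Cmpk2* and 0.000187 for *Mx2*. *Rtp4* had log2 fold changes of -3.61 in luminal cells, -1.32 in basal cells, -0.21 in fibroblasts and -0.15 in adipocytes. *Isg15* had -3.41 in luminal cells, 0.14 in basal cells, 0.13 in fibroblasts and -0.02 in adipocytes. *Irf9* had -0.66 in luminal cells, against 1.06 in basal cells, 0.71 in fibroblasts and -0.12 in adipocytes, so that the same gene was lower in adult luminal cells and higher in adult basal cells and fibroblasts.

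Of 34 further genes of the pathway, 26 passed the filter on low counts in the age fit. In adult luminal cells 1 of the 26 was higher and 3 were lower than in puberty, against 4.36% and 9.03% of all genes, with a median of 0.06. Those lower included *Cgas*, the cytosolic DNA sensor (0.347 to 1.06 CPM in adult libraries, against 1.69 to 3.59 CPM in pubertal ones; log2 fold change -1.86 ± 0.29, adjusted p = 9.61e-05) and *Ifngr2*, a chain of the type II receptor (log2 fold change -0.55 ± 0.17, adjusted p = 0.0329). *Ifngr1*, the other chain, was higher (log2 fold change 0.94 ± 0.23, adjusted p = 0.0069). In basal cells 11 were higher and 3 lower, against 15.8% and 18.5% of all genes. In adipocytes 1 was higher and 3 lower (8.76% and 14.7%), and in fibroblasts 2 were higher and 3 lower (11.8% and 12.1%). Ligand counts were low, and *Ifnk* was the only ligand gene that passed the filter. *Ifnk* was lower in adult than in pubertal basal cells (adjusted p = 0.015) and adipocytes (adjusted p = 0.0343). It was not called in luminal cells or fibroblasts. *Ifnb1*, the gene of interferon beta, had 6 counts over the 8 adult luminal libraries, against 10 over the 2 pubertal ones, and no count in any basal library. In fibroblasts *Ifnb1* had 15 counts in adult and 3 in pubertal libraries. *Ifne* had 41 counts in adult and 17 in pubertal luminal libraries. *Ifnl3*, a type III interferon, had 29 counts in adult and 13 in pubertal luminal libraries and none in basal ones, and *Ifng*, the type II interferon, had no count in the epithelium. The type III receptor gene *Ifnlr1* averaged 27.9 ± 4.4 CPM (SD, n = 8) in adult luminal cells, against 6.56 ± 1.93 CPM in basal cells, 1.85 ± 2.6 CPM in adipocytes and 0.224 ± 0.222 CPM in fibroblasts. The type I receptor gene *Ifnar1* averaged 47.4 ± 8.72 CPM in adult basal cells, against 53.3 ± 7.3 CPM in luminal cells, 31.4 ± 6.7 CPM in adipocytes and 52.7 ± 9.83 CPM in fibroblasts. It was not called in adult basal cells against the mean of the other 3 populations. The gene of the other chain, *Ifnar2*, was called lower there (log2 fold change -0.91 ± 0.10, adjusted p = 6.01e-08). *Ifngr1*, *Ifngr2*, *Il10rb*, *Jak1*, *Jak2* and *Tyk2* were also called lower in that comparison, and *Ifnlr1* higher.

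Across the estrous cycle, every stage was set against the mean of the other 3 within a cell type. In adipocytes (13726 genes tested) the members were lowest in diestrus, where 9 of 33 were lower and 0 higher, against 3.52% of all genes lower and 7.53% higher. The member median was -0.84, against -0.04 over all genes. Among the 9, 7 were effectors (*Isg15*, *Ifit1*, *Ifit3*, *Oas1a*, *Oasl2*, *Bst2* and *Cmpk2*) and 2 were sensors (*Dhx58* and *Eif2ak2*). The 4 GTPases and 3 transcription factors gave no call, with *Gbp2* for example at 318 and 199.8 CPM in diestrus, against 208 to 406 CPM in the other 3 stages.

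*Dhx58* had 3.36 and 3.41 CPM in diestrus, against 6.15 to 12.6 CPM in the other 3 stages (log2 fold change -1.33 ± 0.19, adjusted p = 0.0247). *Isg15* had 13.1 and 12.7 CPM in diestrus, against 20.1 to 39.2 CPM in the other 3 stages (log2 fold change -1.22 ± 0.18, adjusted p = 0.0249). *Eif2ak2* had 21.5 and 20.3 CPM in diestrus, against 31.5 to 45.6 CPM in the other 3 stages (log2 fold change -0.84 ± 0.14, adjusted p = 0.0278). For these 3 genes both diestrus libraries lay below the other 6. *Ifit3* had 3.19 and 3.98 CPM in diestrus, against 6.54 to 36.5 CPM in the other 3 stages (log2 fold change -1.96 ± 0.34, adjusted p = 0.0299). *Cmpk2* had 5.3 and 7.39 CPM in diestrus, against 9 to 20.5 CPM in the other 3 stages (log2 fold change -1.27 ± 0.24, adjusted p = 0.0348). *Bst2* had 18 and 15.2 CPM in diestrus, against 26.1 to 50.9 CPM in the other 3 stages (log2 fold change -0.99 ± 0.19, adjusted p = 0.0363). Again the diestrus libraries were the lowest. The calls depended on the libraries and the model. No member was called without proestrus replicate 2 or without any 1 of the 2 estrus and 2 metestrus libraries, 1 without proestrus replicate 1, and 3 without diestrus replicate 2, the library with the most epidermal markers. Without diestrus replicate 1, 9 members were called, of which 5 were shared. DESeq2 called 16. The member median was -0.62 without diestrus replicate 2 and -0.87 without proestrus replicate 2. Leukocyte markers summed to 377 and 654 CPM in diestrus, against 277 to 656 in the other stages, so the 2 ranges overlapped. Epithelial markers did not overlap. Luminal markers summed to 2064 and 1074 CPM in diestrus, against 222 to 537 in the other stages, and basal markers to 758 and 4469.5 CPM in diestrus, against 168 to 528 in the other stages. Of the 9 members, all but *Bst2* had lower mean CPM in adult luminal and in adult basal cells than in adult adipocytes, while *Bst2* was higher in luminal than in adipocyte libraries on average. The part of these markers in the result was not tested.

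**Figure D3:**
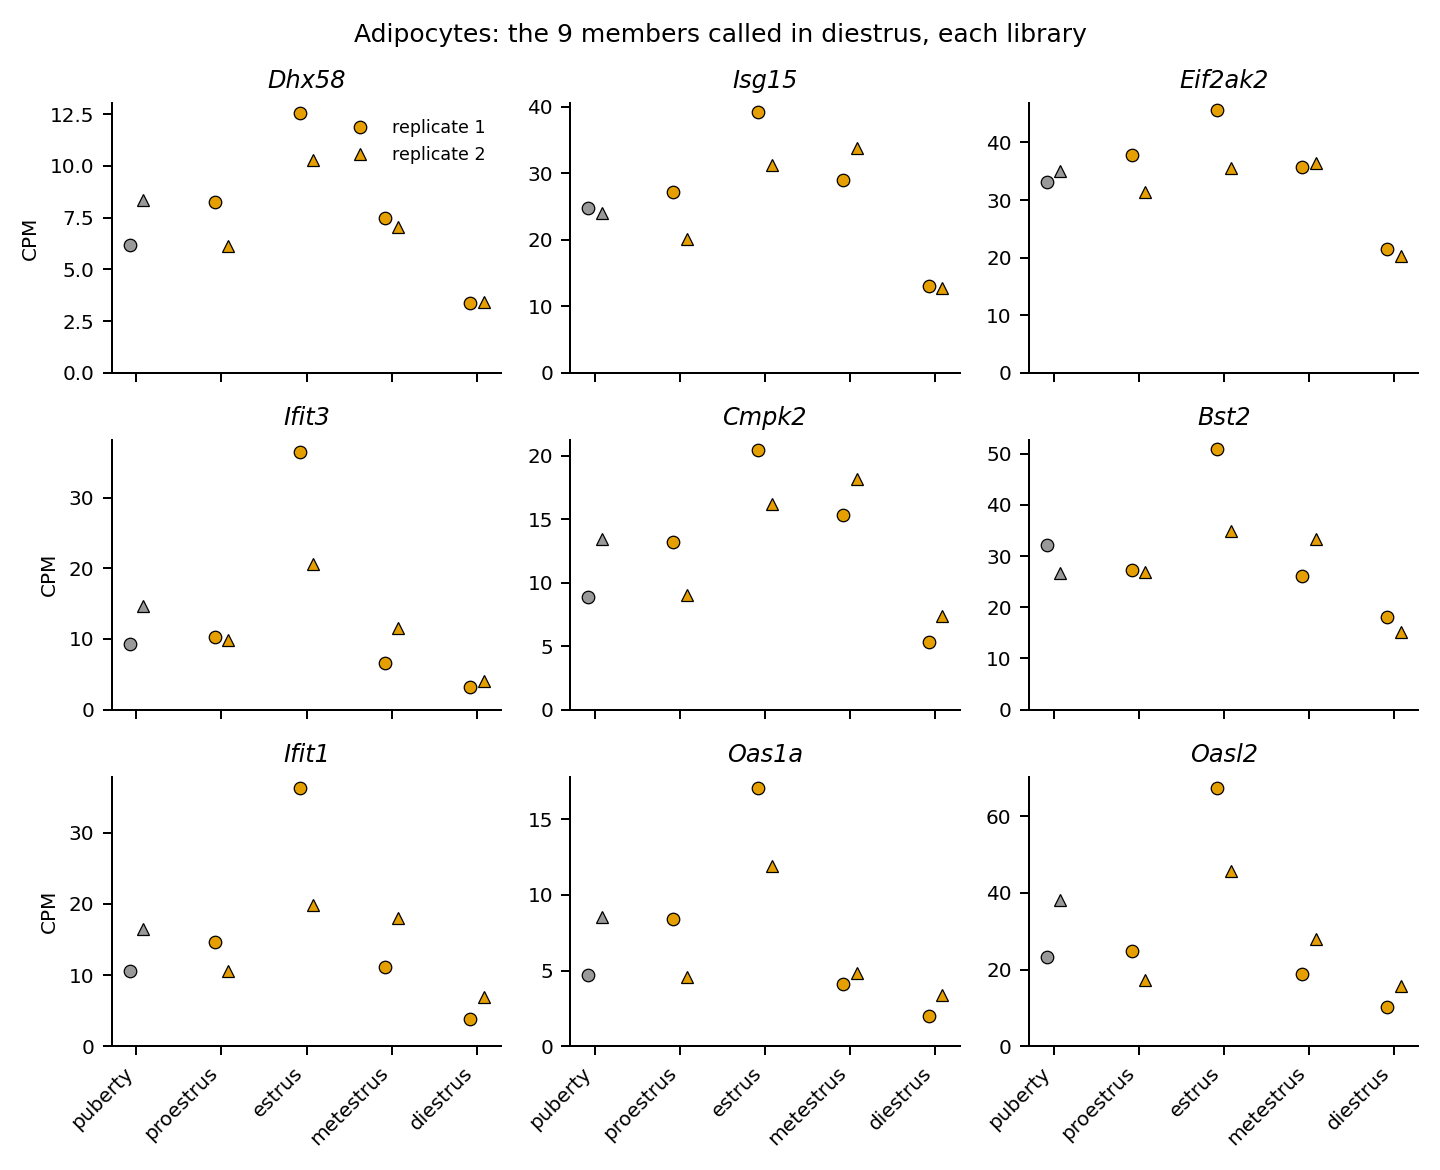
CPM of the 9 members lower in diestrus in adipocytes, 1 panel per gene, with puberty in grey and the 4 adult stages in order on the x axis and 1 point per library. *Isg15*, for example, has 13.1 and 12.7 CPM in diestrus, against 20.1 to 39.2 CPM in the other 3 stages.

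Estrus was the high end of the same range in adipocytes, but 0 members passed with edgeR, against 0% of all genes. At an unadjusted p below 0.05 there were 19 members, against 16.7% of all genes, the member median was 0.80, and DESeq2 called 11. *Ifit3* had 36.5 and 20.7 CPM in estrus, against 3.19 to 11.6 CPM in the other 3 stages (log2 fold change 2.12 ± 0.27, adjusted p = 0.218), and *Irf7* had 141 and 61.8 CPM in estrus, against 18.2 to 37.6 CPM in the other 3 stages (log2 fold change 2.03 ± 0.28, adjusted p = 0.218). For both genes the 2 estrus libraries were the highest of the 8, and they differed from each other, with replicate 2 below replicate 1 for 31 of 33 members (median log2 difference -0.49). In proestrus 0 members passed and 0 had an unadjusted p below 0.05 (0 with DESeq2), against 11% of all genes. In metestrus 0 passed and 5 had an unadjusted p below 0.05 (0 with DESeq2), against 4.97% of all genes. In proestrus the smallest adjusted p were 0.493 for *Irgm1* and 0.538 for *Rsad2*. In metestrus they were 0.826 for *Isg15* and 0.826 for *Rsad2*.

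In luminal cells 30 members could be tested (12306 genes), and 0 passed with edgeR in any stage, against 0.471% of all genes in proestrus and 0% in the other 3 stages. Unadjusted p below 0.05 were found for 12 members in proestrus (13.8% of all genes), 9 in estrus (8.74%), 3 in metestrus (8.22%) and 6 in diestrus (9.05%). DESeq2 called 3 members in proestrus, 3 in estrus, and 0 in metestrus and in diestrus. *Gbp2* came closest, with 194 and 189 CPM in estrus, against 79.3 to 106 CPM in the other 3 stages (log2 fold change 1.02 ± 0.13, adjusted p = 0.0868), and both estrus libraries stood above the other 6. *Oas3* had 5.86 and 3.42 CPM in estrus, against 1.32 to 2.11 CPM in the other 3 stages (log2 fold change 1.49 ± 0.26, adjusted p = 0.0949). *Bst2* had 57.7 and 55.6 CPM in proestrus, against 27.1 to 49.5 CPM in the other 3 stages (log2 fold change 0.70 ± 0.15, adjusted p = 0.0949), and *Oasl2* had 4.56 and 4.71 CPM in proestrus, against 6.47 to 11.6 CPM in the other 3 stages (log2 fold change -0.85 ± 0.19, adjusted p = 0.113). *Bst2* was thus high and *Oasl2* low in both proestrus libraries. In metestrus the smallest adjusted p were 0.532 for *Rsad2* and 0.576 for *Usp18*, and in diestrus 0.436 for *Usp18* and 0.441 for *Stat2*.

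In basal cells 20 members could be tested (12122 genes), and 0 passed with edgeR or DESeq2 in any stage. Of all genes, 0.00825% passed with edgeR in proestrus, 1.21% in estrus and 0% in metestrus and in diestrus. Unadjusted p below 0.05 were found for 0 members in proestrus (8.48% of all genes), 3 in estrus (11.8%), 3 in metestrus (24.7%) and 2 in diestrus (8.13%). *Parp14* had 9.6 and 10.5 CPM in estrus, against 13.3 to 18 CPM in the other 3 stages (log2 fold change -0.67 ± 0.17, adjusted p = 0.147), and *Gbp2* had 32.7 and 45.6 CPM in estrus, against 40.7 to 71.3 CPM in the other 3 stages (log2 fold change -0.54 ± 0.19, adjusted p = 0.31). Of the 2 genes, *Parp14* had both estrus libraries below the other 6. In proestrus the smallest adjusted p were 0.611 for *Ifi35* and 0.633 for *Ifih1*, in metestrus 0.126 for *Parp14* and 0.131 for *Ifi35*, and in diestrus 0.574 for *Ifi35* and 0.611 for *Gbp2*. In fibroblasts 32 members could be tested (13068 genes), and 0 passed with edgeR in any stage, against 0% of all genes. Unadjusted p below 0.05 were found for 1 member in proestrus (7.5% of all genes), 8 in estrus (20.8%), 5 in metestrus (17.4%) and 10 in diestrus (17.9%). DESeq2 called 0 members in proestrus, 4 in estrus, 0 in metestrus and 4 in diestrus. *Oasl2* had 8.66 and 13.4 CPM in diestrus, against 20.05 to 36.4 CPM in the other 3 stages (log2 fold change -1.14 ± 0.27, adjusted p = 0.192), and *Ifit3* had 1.04 and 3.31 CPM in diestrus, against 5.77 to 15.7 CPM in the other 3 stages (log2 fold change -1.75 ± 0.47, adjusted p = 0.196). Both were lowest in diestrus replicate 1, and replicate 2 was above replicate 1 for 30 of 32 members in that stage (median log2 difference 0.68). *Eif2ak2* had 4.81 and 6.9 CPM in estrus, against 7.62 to 12.6 CPM in the other 3 stages (log2 fold change -0.97 ± 0.24, adjusted p = 0.0844), and *Ifit3* had 15.7 and 7.71 CPM in estrus, against 1.04 to 6.92 CPM in the other 3 stages (log2 fold change 1.27 ± 0.39, adjusted p = 0.117). Estrus replicate 1 of fibroblasts leaned to short transcripts, with a length correlation of -0.41. In proestrus the smallest adjusted p were 0.651 for *Eif2ak2* and 0.658 for *Stat2*, and in metestrus 0.182 for *Ifit2* and 0.206 for *Gbp2*.

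In the 6 comparisons between pairs of stages, later minus earlier, 0 members passed with edgeR in any of the 4 cell types. Of all genes, 0.0569% passed in estrus against proestrus, 0.195% in metestrus against proestrus and 0.252% in diestrus against proestrus in luminal cells, 0.0247% in metestrus against proestrus in basal cells, 0.0801% in diestrus against estrus in adipocytes, and 0% in the other 19 comparisons. DESeq2 called 4 members in at least 1 pair in luminal cells, 1 in basal cells, 12 in fibroblasts and 19 in adipocytes. At an unadjusted p below 0.05 the most members in a pair were 9 in luminal cells (estrus against proestrus, 11.4% of all genes, and diestrus against proestrus, 12.6%), 4 in basal cells (metestrus against estrus, 23%), 19 in adipocytes (diestrus against estrus, 28.5%) and 13 in fibroblasts (diestrus against estrus, 23.3%). Adipocytes had the most in diestrus against estrus, where the 2 smallest adjusted p were for *Dhx58* and *Ifit3*. *Dhx58* had 3.36 and 3.41 CPM in diestrus, against 12.6 and 10.3 CPM in estrus (log2 fold change -1.82 ± 0.22, adjusted p = 0.053). *Ifit3* had 3.19 and 3.98 CPM in diestrus, against 36.5 and 20.7 CPM in estrus (log2 fold change -3.06 ± 0.39, adjusted p = 0.053). The 2 stages did not overlap for either gene. Between estrus and proestrus, *Irf7* had 141 and 61.8 CPM in estrus, against 31.2 and 27.1 CPM in proestrus (log2 fold change 1.89 ± 0.38, adjusted p = 0.334). In fibroblasts diestrus against estrus had 13 members at an unadjusted p below 0.05, among them *Oasl2* with 8.66 and 13.4 CPM in diestrus, against 36.4 and 21.1 CPM in estrus (log2 fold change -1.25 ± 0.32, adjusted p = 0.0888). In luminal cells the smallest adjusted p over the pairs was 0.127, and *Gbp2* had 194 and 189 CPM in estrus, against 79.3 and 99.7 CPM in proestrus (log2 fold change 1.096 ± 0.17, adjusted p = 0.127). In luminal cells the 2 smallest adjusted p of each pair belonged to *Gbp2*, *Xaf1*, *Bst2*, *Rsad2*, *Usp18*, *Oas3* and *Stat2*, at 0.127 to 0.755. In basal cells the 2 smallest adjusted p of each pair belonged to *Parp14*, *Ifi35*, *Xaf1*, *Ifit2*, *Ifih1*, *Bst2*, *Gbp2* and *Stat2*, at 0.102 to 0.912. In adipocytes the 2 smallest adjusted p of each pair belonged to *Irf7*, *Oasl2*, *Irgm1*, *Cmpk2*, *Dhx58*, *Eif2ak2*, *Ifit3* and *Isg15*, at 0.053 to 1. In fibroblasts the 2 smallest adjusted p of each pair belonged to *Eif2ak2*, *Ifih1*, *Stat2*, *Oasl1*, *Zbp1*, *Cmpk2*, *Ifit2*, *Ifit3* and *Oasl2*, at 0.0888 to 0.511.

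The 4 cell types of an adult replicate were taken to share their mice, and the question was whether the members moved together over the cell types of 1 pool. In a model with cell type and pool (15077 genes), 5 of 33 members differed between the 8 pools, against 3.28% of all genes, namely *Oas3* (adjusted p = 0.00845), *Irf7* (0.0231), *Ifit3* (0.0239), *Bst2* (0.0374) and *Igtp* (0.0465). Set against the mean of the other 7 pools, estrus replicate 1 had 8 members higher and 0 lower, against 2.17% and 0.63% of all genes, with a member median of 0.43. Stage and pool cannot be told apart in this model, since each pool belongs to 1 stage. In the other 7 pools edgeR called 0 members, against 0.106% of all genes in proestrus replicate 1, 0.0597% in proestrus replicate 2, 0.0133% in estrus replicate 2, 0.0199% in metestrus replicate 1, 0.00663% in metestrus replicate 2, 1.61% in diestrus replicate 1 and 6.29% in diestrus replicate 2. At an unadjusted p below 0.05, diestrus replicate 1 had the most members, with 10 against 16.1% of all genes (member median -0.35). DESeq2 was not run for single pools.

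*Irf7* had 7.44 CPM in luminal cells (against 4.3 to 6.36), 7.76 CPM in basal cells (against 3.55 to 7.87), 141 CPM in adipocytes (against 18.2 to 61.8) and 34.6 CPM in fibroblasts (against 8.36 to 21.1), with a log2 fold change 1.24 ± 0.22, adjusted p = 0.00121. *Oas3* had 5.86 CPM in luminal cells (against 1.32 to 3.42), 0 CPM in basal cells (against 0 to 0.0582), 3.86 CPM in adipocytes (against 0.252 to 1.79) and 0.641 CPM in fibroblasts (against 0.0591 to 0.67) (adjusted p = 0.000901). *Ifit3* had 0.0718 CPM in luminal cells (against 0 to 0.26), 0.0597 CPM in basal cells (against 0 to 0.121), 36.5 CPM in adipocytes (against 3.19 to 20.7) and 15.7 CPM in fibroblasts (against 1.04 to 7.71), with a log2 fold change 1.73 ± 0.34, adjusted p = 0.00382. *Irf7* and *Ifit3* were highest of the 8 adipocyte and fibroblast libraries in this pool, *Oas3* was highest in luminal cells and adipocytes, and no fold is given for *Oas3*, which had no count in the basal library. *Bst2* had 49.5 CPM in luminal cells (against 27.1 to 57.7), 2.8 CPM in basal cells (against 0.873 to 2.86), 50.9 CPM in adipocytes (against 15.2 to 34.8) and 86.8 CPM in fibroblasts (against 21.2 to 62.7), with a log2 fold change 0.80 ± 0.18, adjusted p = 0.0132. *Oas1a* had 2.51 CPM in luminal cells (against 1.29 to 2.81), 0.776 CPM in basal cells (against 0.1 to 0.363), 17 CPM in adipocytes (against 1.99 to 11.9) and 14.1 CPM in fibroblasts (against 1.18 to 8.24), with a log2 fold change 1.38 ± 0.31, adjusted p = 0.0144. *Oasl2* had 11.6 CPM in luminal cells (against 4.56 to 9.31), 2.8 CPM in basal cells (against 1.34 to 2.92), 67.4 CPM in adipocytes (against 10.2 to 45.6) and 36.4 CPM in fibroblasts (against 8.66 to 27.5), with a log2 fold change 0.99 ± 0.23, adjusted p = 0.0171. *Oas1a* and *Oasl2* were highest in both adipocytes and fibroblasts, and so was *Bst2*. *Usp18* (log2 fold change 1.15 ± 0.27, adjusted p = 0.0192) and *Xaf1* (log2 fold change 0.78 ± 0.19, adjusted p = 0.0255) were the other 2. The count of members that differed between pools was 1 without luminal cells, 2 without basal cells, 0 without adipocytes and 1 without fibroblasts. It was 0 without estrus replicate 1, 2 without diestrus replicate 1, and 3 without proestrus replicate 1 or metestrus replicate 1. For estrus replicate 1 alone, 4 members were called without luminal cells, 4 without basal cells, 2 without adipocytes and 5 without fibroblasts. When the stage was taken out and replicate 2 was compared with replicate 1 within each stage over the 4 cell types, 0 of 33 members passed with edgeR and 0 with DESeq2, against 0.073% of all genes, and 7 had an unadjusted p below 0.05, against 10.4%, with the smallest adjusted p at 0.197 for *Rsad2* and 0.286 for *Oasl1*.

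The deviation of each library from its cell type, as a median over the members above 1 CPM, placed the pools side by side. In estrus replicate 1 it was 0.29 in luminal cells (31 members), -0.23 in basal cells (19), 0.34 in fibroblasts (32) and 0.73 in adipocytes (33) on the log2 scale. In diestrus replicate 1 it was 0.10 in luminal cells, 0.08 in basal cells, -0.71 in fibroblasts and -0.38 in adipocytes. In diestrus replicate 2 it was -0.09 in luminal cells, 0.23 in basal cells, -0.10 in fibroblasts and -0.65 in adipocytes. Adipocyte and fibroblast medians had the same sign in these 3 pools, and also in proestrus replicate 1 and metestrus replicate 2. They had opposite signs in the remaining pools, with -0.25 in adipocytes and 0.20 in fibroblasts in proestrus replicate 2, 0.33 and -0.07 in estrus replicate 2, and -0.06 and 0.18 in metestrus replicate 1. Of the 18 members above 1 CPM in all 4 types, 3 were above the mean of every type in estrus replicate 1 (9.92% of all genes), 3 in estrus replicate 2 (9.72%), 4 in metestrus replicate 1 (7.94%), 4 in metestrus replicate 2 (7.28%), and 0 or 1 in the other 4 pools. Over the 8 pools, the median Pearson correlation of a member between 2 cell types was 0.45 for adipocytes and fibroblasts, with 26 of 32 members positive, against 0.15 for all genes, and 0.39 for luminal cells and adipocytes, with 20 of 29 positive, against 0.11. It was -0.01 for luminal and basal cells (9 of 18 members positive, 0.20 for all genes), 0.01 for luminal cells and fibroblasts (14 of 28, 0.08), -0.15 for basal cells and adipocytes (9 of 19, 0.05) and 0.14 for basal cells and fibroblasts (13 of 19, 0.30). These correlations describe 8 pools that also differ in stage, and members are not independent of each other. Leukocyte markers in adipocytes were at 656 CPM in estrus replicate 1, the highest of the 8 adult libraries, against 277 to 653.5 in the other 7, and their part in the pool differences was not tested.

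**Figure D4:**
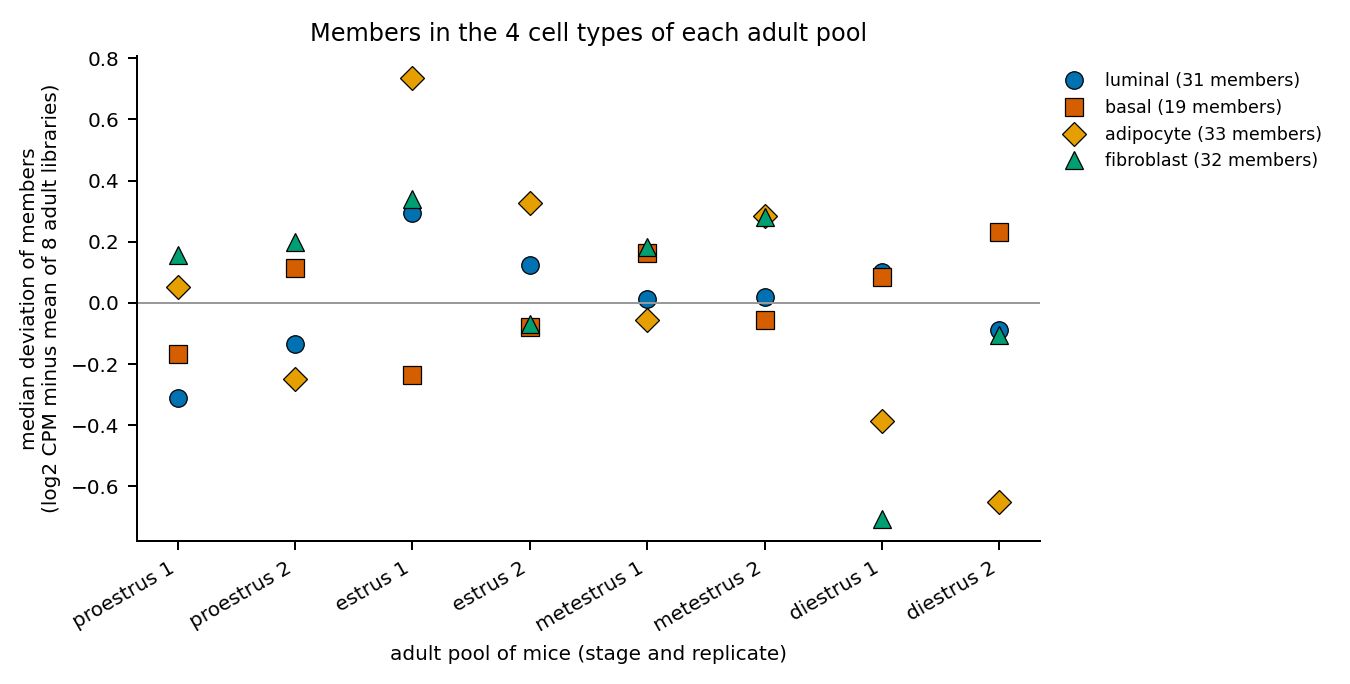
Median log2 deviation of the members from the mean of their cell type (y axis) in the 8 adult pools (x axis, by stage and replicate), with 1 symbol per cell type (31 luminal, 19 basal, 33 adipocyte and 32 fibroblast members). In estrus replicate 1 the luminal, adipocyte and fibroblast symbols are above 0 and the basal symbol is below it.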

How the data were processed

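The authors aligned stranded poly(A)+ single-end reads to GRCm38 with TopHat2 2.1 and Bowtie 1.1.0, counted them per gene with HTSeq, and deposited raw counts in 1 table of 32 adult and 1 of 8 pubertal libraries. The strand setting of the counting is not given in the sources used here. Counts were tested with edgeR 4.0.16 in R 4.3.3 (genes above 1 CPM in at least 2 libraries of the fit, TMM, quasi-likelihood F-test, Benjamini-Hochberg adjustment over all genes tested, threshold 0.05). The alternatives were DESeq2 1.42.0, its size factors in edgeR, no filter, the newer form of the quasi-likelihood test, blocking on the replicate, 1 fit of all adult libraries and leaving out libraries, and an offset for exon length was chosen after the data were seen. The edgeR fits in the reported setting were tested on simulated counts, in which each gene had the same mean in all libraries before known changes were added. The simulated libraries were independent, every gene had the same spread, and no change was added to genes at low counts. The simulation therefore does not cover pools shared between cell types, or the recovery of changes at low counts. DESeq2, the other alternatives and the remaining steps were not tested in this way. Values of 1 further pathway gene are not reported here. RPKM used exon lengths of GENCODE M21 on GRCm38.

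The members and lists were chosen with earlier results of these data known. Values are given in full for the 6 called members of a comparison with the smallest adjusted p, or for 2 members where none was called, and every member is named at least once. The methods list 1 pool of mice per adult stage and replicate, from which it was taken that its 4 cell types came from the same mice. Deviations of same-numbered adult libraries of 2 cell types correlated at 0.04 to 0.11 (median 0.08). For stages within a cell type, the p-values measure the spread between pools of mice. For ages they do so with a spread shared over the 4 cell types in 1 fit. In the pool tests they measure how unequally the cell types of a pool moved, and those libraries were taken to share their mice. The reported fits between adult cell types, between pubertal cell types and between ages, with its interaction test, had no block on the pool. They took the libraries of 1 pool as independent.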

Additional observations from a re-analysis of the deposited data

Results flagged for a closer look

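In 113 pairs of a member and a cell type, each with 8 adult libraries, 5 had 1 library that stood far from the other 7, where about 1 in 20 such groups would by chance. *Irf9* was low in luminal diestrus replicate 2 (26.7 CPM), and *Oasl1* was high in luminal diestrus replicate 1 (6.91 CPM). *Trim30a* was low in luminal proestrus replicate 2 (3.85 CPM) and in fibroblast diestrus replicate 1 (10.1 CPM). *Stat2* was low in adipocyte diestrus replicate 2 (28.6 CPM), the library with the most epidermal markers. Over all members above 1 CPM, fibroblast diestrus replicate 1 stood apart from the other 7 fibroblast libraries, with a median log2 deviation of -0.71.

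The difference between adult and pubertal libraries was not the same in the 4 cell types for 26 members, by the interaction test in edgeR. The 6 smallest adjusted p were 4.36e-06 for *Rtp4*, 5.92e-06 for *Isg15*, 5.01e-05 for *Irf9*, 8.87e-05 for *Oasl2*, 9.33e-05 for *Cmpk2* and 0.000187 for *Mx2*. Age and sequencing run cannot be told apart in this test.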

How the results depend on the processing

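Values are numbers of members called. The counts between adult cell types, and the 0 calls for pools within a stage tested over all stages together, stayed within 1.5 times of the reported ones under every alternative run. Within diestrus alone, the newer quasi-likelihood test called 1 member between the 2 pools, against 0 in the reported fit. With DESeq2, counts were 3 in luminal proestrus, 3 in luminal estrus, 11 in adipocyte estrus, 16 in adipocyte diestrus, 4 in fibroblast estrus and 4 in fibroblast diestrus. In pairs of stages, DESeq2 gave 4 in luminal cells, 1 in basal cells, 12 in fibroblasts and 19 in adipocytes. It gave 8 between pools and 1 for adult against pubertal adipocytes. DESeq2 size factors gave 3 in adipocyte pairs and 1 for adult against pubertal adipocytes. Without the filter on low counts, counts were 7 in luminal proestrus, 4 in luminal estrus, 2 in luminal diestrus, 1 in basal estrus, 9 in fibroblast estrus, 2 in fibroblast metestrus and 10 in fibroblast diestrus, with 11 in luminal, 2 in basal, 8 in adipocyte and 18 in fibroblast pairs, and 1 for adult against pubertal adipocytes. The joint fit of 32 adult libraries gave 7 in adipocyte estrus, 14 in adipocyte diestrus, 6 in fibroblast estrus, 4 in fibroblast diestrus, 18 in adipocyte pairs and 15 in fibroblast pairs. The exon-length offset, chosen after the data were seen, gave 5 in adipocyte diestrus. Apart from results that change because an alternative uses fewer libraries, the cause was not tested.

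With the replicate block, adipocyte diestrus had 0 members called, against 9 without it, and no other count left the range of 1.5 times. Between adult cell types the block on the pool gave 26 members in luminal cells, 32 in basal cells, 31 in fibroblasts and 30 in adipocytes. In stages of 1 cell type, libraries share only a number, and their deviations correlated at -0.67 to 0.38.

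Leaving out 1 replicate at a time gave these lowest and highest counts. In pubertal cell types they were 13 (without luminal replicate 2) to 21 in luminal cells and 8 (without fibroblast replicate 1) to 23 in fibroblasts. In stages they were 0 to 1 in luminal proestrus (1 without diestrus replicate 2), 0 to 2 in luminal estrus (2 without estrus replicate 2), 0 to 9 in adipocyte diestrus and 0 to 1 in fibroblast estrus (1 without estrus replicate 2). In pairs of stages they were 0 to 1 in luminal cells (1 without either diestrus library), 0 to 15 in adipocytes (15 without diestrus replicate 1 and 10 without diestrus replicate 2) and 0 to 6 in fibroblasts (6 without estrus replicate 2). For adult against puberty they were 9 (without puberty replicate 2) to 16 in basal cells, 0 to 3 in adipocytes, 6 (without puberty replicate 1) to 15 in fibroblasts, and 15 (without puberty replicate 2) to 27 for the difference between cell types. They were 0 (without estrus replicate 1) to 5 between pools. Without luminal cells, 1 member differed between pools and 4 were called in the estrus replicate 1 pool. Without basal cells these numbers were 2 and 4, without adipocytes 0 and 2, and without fibroblasts 1 and 5. *Rsad2* in adult against pubertal adipocytes turned to a log2 fold change of 0.35 (adjusted p = 0.633) without puberty replicate 1 and was -1.63 without puberty replicate 2.

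Of the other values for single members, 1685 kept their direction and side of the threshold, 106 lost it and 31 gained it. DESeq2 was not run for the difference between cell types or for single pools. With 2 libraries per stage and per pubertal cell type, leaving 1 out assumes that the remaining one varies like the other groups. Low levels limit basal cells most, where 20 of 33 members passed the filter in the fits of stages.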

Other observations

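The further genes of the interferon pathway were also compared between adult cell types, where calls were common over all genes. Of 26 tested, 9 were higher and 12 lower in luminal cells, against 38% and 35.7% of all genes. In basal cells 5 were higher and 16 lower (39.7% and 34.6%). In adipocytes 13 were higher and 4 lower (43.9% and 36.6%), and in fibroblasts 18 were higher and 4 lower (39.9% and 37.7%). *Tlr3*, the endosomal receptor for double-stranded RNA, averaged 11.1 ± 1.5 CPM in luminal cells (SD, n = 8 each), against 0.645 ± 0.299 CPM in basal cells, 8.28 ± 2.02 CPM in adipocytes and 4.23 ± 2.19 CPM in fibroblasts. It was higher in luminal cells (log2 fold change 2.00 ± 0.19, adjusted p = 7.32e-09) and lower in basal cells (log2 fold change -3.46 ± 0.28, adjusted p = 3.64e-10). Like *Ifih1* among the members, it was lowest in basal cells. *Cgas*, the cytosolic DNA sensor, had another order, with 0.75 ± 0.257 CPM in luminal cells, against 5.91 ± 1.57 CPM in basal cells, 4.7 ± 0.908 CPM in adipocytes and 14.9 ± 3.44 CPM in fibroblasts. *Irf1*, a transcription factor induced by type II interferon, averaged 276 ± 64.6 CPM in adipocytes, against 148 ± 33.8 CPM in fibroblasts, 52.2 ± 10 CPM in luminal cells and 64.5 ± 23.3 CPM in basal cells. *Tlr7*, a receptor for single-stranded RNA, had 2.96 to 7.37 CPM in adipocytes, against 0 to 0.0433 CPM in luminal cells, 0 to 0.159 CPM in basal cells and 0 to 0.258 CPM in fibroblasts. The adipocyte libraries also held leukocyte markers at 277 to 656 CPM in adults, and their part in the level of *Tlr7* was not tested.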
